A study of Mus musculus with 12 samples.

Results

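The mRNA of 10 Kruppel-like factors, *Klf2*, *Klf3*, *Klf4*, *Klf6*, *Klf7*, *Klf9*, *Klf10*, *Klf11*, *Klf13* and *Klf16*, was followed in mouse bone marrow-derived macrophages (BMDMs) stimulated through the beta2-adrenergic receptor (B2AR). The genes were taken by symbol from the table of raw counts, which lists 53379 genes, and all 10 were among the 12386 genes with enough counts to be tested. BMDMs of 4 male C57Bl/6J mice were left untreated or received 1 μM fenoterol, an agonist of B2AR, for 1 h or 4 h. This gave 3 groups of 4 libraries, and each mouse contributed 1 library to every group. All cells had grown for 1 week in medium conditioned by L929 cells, and fenoterol was added to that medium without a change; no group treated with a vehicle is among these libraries. The study chose 1 h because genes that depend on the transcription factor CREB peaked then in its own PCR time course. *Klf4* was among the genes of that time course, so the 1 h point was set partly on *Klf4* itself. The 4 h point was chosen for genes that respond later.

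Kruppel-like factors are transcription factors that bind GC-rich boxes and CACCC boxes in DNA through zinc fingers at their C-terminal end. Their N-terminal parts differ and sort them into activators such as KLF2, KLF4, KLF6 and KLF7, repressors that recruit the corepressor CtBP such as KLF3, and factors that recruit the corepressor Sin3A such as KLF9, KLF10, KLF11, KLF13 and KLF16. In macrophages, KLF2 and KLF4 are known to restrain inflammatory gene expression, KLF4 also takes part in monocyte differentiation and alternative activation, and KLF6 is known to favor inflammatory programs. B2AR signals through cyclic AMP and protein kinase A to the transcription factor CREB, which binds the cyclic AMP response element TGACGTCA and, more weakly, its shorter form TGACG.

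The promoters of 8 of the 10 genes were found in RefSeq (build GRCm38.p6), from 250 bases before to 50 bases after the start of the gene. No entry was matched for *Klf10* and *Klf16*. The whole element TGACGTCA, searched on both strands, stood in 0 of these 8 promoters, against 1.79% of 32851 promoters of the same length. The shorter TGACG, which every whole element also contains, stood in 5 of the 8, against 20.8% of all promoters. In 4 genes, *Klf2*, *Klf4*, *Klf9* and *Klf13*, it lay before the start, and in *Klf3* it lay after it. The 60 bases of these 4 promoters that hold it are shown in the direction of the gene, 5′ to 3′, because cyclic AMP signaling was the stimulus. Capitals mark TGACG, or CGTCA where it lies on the other strand. The *Klf2* stretch is chr8:72318812-72318871 (plus strand), that of *Klf4* is chr4:55532666-55532725 (minus strand), that of *Klf9* is chr19:23141153-23141212 (plus strand) and that of *Klf13* is chr7:63938939-63938998 (minus strand).
Klf2: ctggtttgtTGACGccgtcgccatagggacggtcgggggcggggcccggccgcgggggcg
Klf4: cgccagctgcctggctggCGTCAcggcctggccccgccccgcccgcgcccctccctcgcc
Klf9: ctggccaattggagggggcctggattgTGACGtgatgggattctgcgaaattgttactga
Klf13: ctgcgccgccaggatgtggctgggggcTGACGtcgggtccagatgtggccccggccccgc

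The other motifs are given as counts. The GC box GGGCGG stood in 7 of the 8 promoters against 35.7% of all, and the CACCC box in 5 against 57.5%. The CCAAT box stood in 4 promoters against 37.4% of all, and TATAAA in 0 against 13.6%. The GC content of the 8 promoters lay between 58.3% for *Klf7* and 77.7% for *Klf11*. The promoters that they were compared with were not matched for GC content. A match describes these letters only, and whether CREB or a Kruppel-like factor was bound there was not measured.

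The libraries held between 14580533 and 24153284 counts. Normalized counts are the counts scaled by TMM factors to the mean library size of 19595982, and fold changes and adjusted p-values are from edgeR's quasi-likelihood test with Benjamini-Hochberg adjustment over all tested genes. All 7 macrophage markers checked (among them *Adgre1*, *Csf1r* and *Lyz2*) were present in every library. Their summed level was 37861 to 39567 CPM (counts scaled to the size of the library) in untreated BMDMs, 32796 to 37957 CPM at 1 h and 32878 to 37221 CPM at 4 h, where it no longer overlapped the untreated range. Among them *Mertk* went from 3045 to 4428 counts per library in untreated BMDMs to 1253 to 1805 at 4 h, and *Itgam* from 7065 to 10360 up to 11848 to 15805. The 3 erythroid markers were at 0 throughout. The 5 granulocyte markers summed to 16.9 to 31.7 CPM and the 4 stromal markers to 13.7 to 40.1 CPM, with ranges that overlapped between the groups, and those of dendritic cells, lymphocytes and mast cells to at most 1.58 CPM. The 3 endothelial markers *Pecam1*, *Cdh5* and *Tek* summed to 0.79 to 2.61 CPM in untreated BMDMs, 1.00 to 1.97 CPM at 1 h and 9.35 to 13.3 CPM at 4 h. *Pecam1*, also known from leukocytes, made up most of this rise with 150 to 241 counts per library at 4 h, and *Cdh5* had 19 to 32 and *Tek* 0 to 3. The part of these marker shifts in the 4 h values of the Kruppel-like factors was not tested. In RNA of whole cultures, fewer expressing cells and less RNA per cell cannot be told apart.

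After 1 h of fenoterol, 6 of the 10 genes had passed the threshold of an adjusted p under 0.05, against 20.1% of all genes tested. *Klf4*, *Klf2*, *Klf16* and *Klf10* were higher, where 10.0% of all genes were higher, and *Klf6* and *Klf3* were lower, where 10.1% of all genes were lower. The libraries of the 2 groups did not overlap for 6 genes, as for 23.0% of all genes. The median size of the log2 fold change, without its sign, was 0.47 over the 10 genes and 0.15 over all genes. At 4 h it was 0.28 against 0.23, and between 4 h and 1 h it was 0.34 against 0.22. At 1 h against untreated, *Klf4* was the only one of the 10 genes past the threshold with a change of at least 2-fold. The signed median at 1 h was 0.18 against -0.0049 over all genes.

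After 4 h, 6 genes again differed from untreated BMDMs, where 40.0% of all genes did. *Klf7* and *Klf10* were higher, against 19.7% of all genes, and *Klf6*, *Klf9*, *Klf11* and *Klf13* were lower, against 20.4%. The groups did not overlap for 4 genes, against 37.6% of all genes, and none of the 10 had changed by 2-fold. The median log2 fold change was -0.090, against 0.0042 over all genes. Both time points were compared with the same untreated libraries. Between 4 h and 1 h, 8 genes differed, against 38.5% of all genes. *Klf3*, *Klf6* and *Klf7* were higher at 4 h, where 18.7% of all genes were higher, and *Klf2*, *Klf4*, *Klf9*, *Klf13* and *Klf16* were lower, where 19.8% were lower. The groups did not overlap for these 8 genes, as for 35.9% of all genes. *Klf4* and *Klf2* differed by at least 2-fold, and the median was -0.22 against 0.0074 over all genes.

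**Figure D1:**
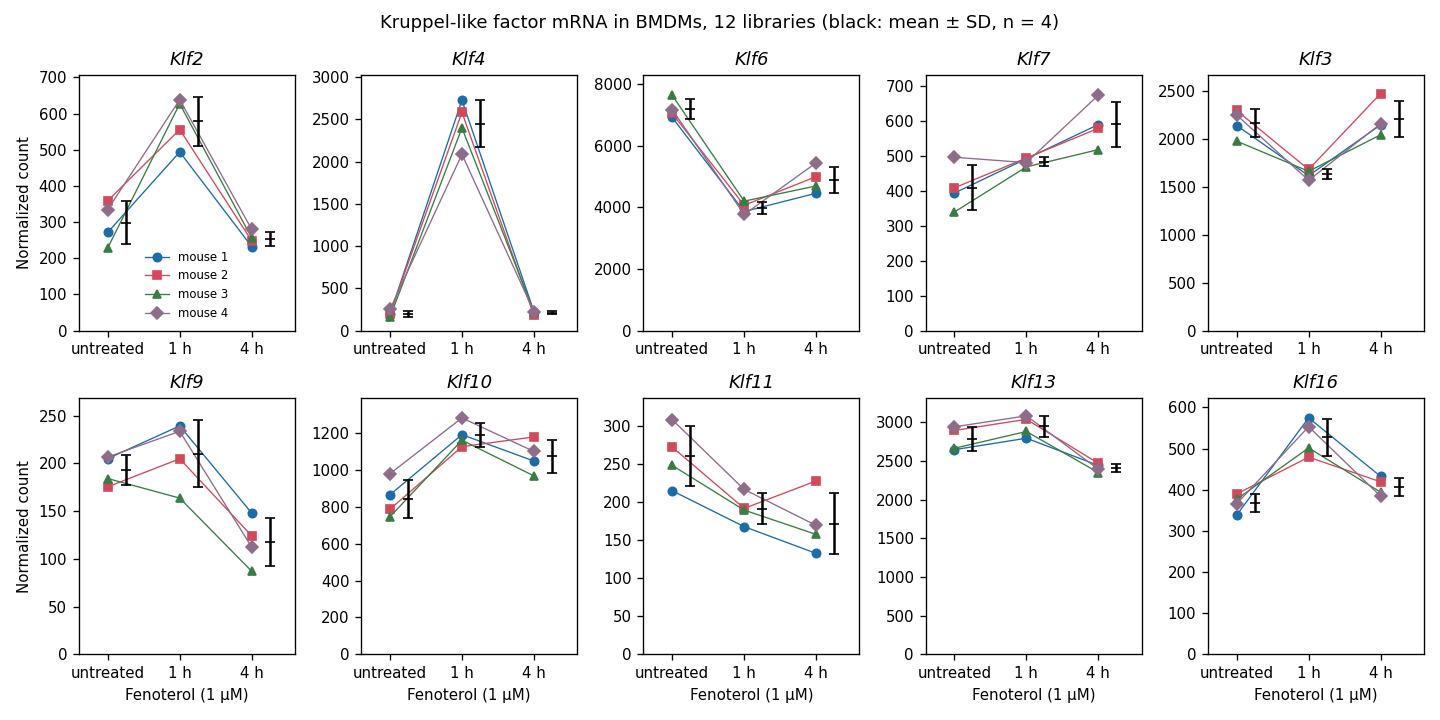
Normalized counts of the 10 Kruppel-like factors (vertical axes from 0, a scale for each gene) in untreated BMDMs and after 1 h and 4 h of fenoterol. Colored lines join the libraries of 1 mouse and black marks are the mean ± SD (n = 4); *Klf4* and *Klf2* peak at 1 h, *Klf6* and *Klf3* are lowest at 1 h, and *Klf7* is highest at 4 h.

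*Klf4* (ENSMUSG00000003032; chr4:55527143-55532466, minus strand, GRCm38) encodes the activator that is also known as a reprogramming factor. Its normalized counts in the 4 untreated libraries were 193, 196, 157 and 251, in the order of the mice. At 1 h they were 2729, 2585, 2400 and 2087, and at 4 h they were 225, 179, 223 and 226. The lowest 1 h library stood far above the highest untreated one, while the untreated and 4 h libraries overlapped. The rise at 1 h was 12.3-fold (log2 fold change 3.62, standard error 0.13, adjusted p = 3.03e-11), and by p-value *Klf4* ranked 34 among the tested genes. The mouse with the highest untreated count, mouse 4, had the lowest count at 1 h, so its own log2 difference of 3.06 was the smallest of the 4 and the largest was 3.93. By 4 h the level was 11.5-fold below that of 1 h (log2 fold change -3.52, adjusted p = 1.52e-10), which ranked 8 by p-value. Against untreated BMDMs the log2 difference at 4 h was 0.11 with a 95% interval of -0.18 to 0.39 (adjusted p = 0.568), and without untreated replicate 3 it was -0.0050.

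*Klf2* (ENSMUSG00000055148; chr8:72319033-72321656, plus strand), the close relative of *Klf4* known from quiescent endothelium and T cells, followed the same course with a smaller amplitude. It had 272, 359, 228 and 335 normalized counts in untreated BMDMs. It had 494, 556, 627 and 638 at 1 h and 232, 248, 256 and 279.7 at 4 h. All 1 h libraries lay above all others, and the other two groups overlapped. *Klf2* rose by 1.95-fold at 1 h (log2 fold change 0.96, standard error 0.13, adjusted p = 6.74e-05), with log2 differences of 0.63 to 1.46 within the mice. From 1 h to 4 h it fell by 1.19 on the log2 scale (standard error 0.13, adjusted p = 5.66e-06). At 4 h it was 0.22 log2 units below untreated, which did not pass (95% interval -0.51 to 0.06, adjusted p = 0.205). Without untreated replicate 3, the lowest of its group, the difference was -0.34 and passed (adjusted p = 0.0352, over all alternatives 0.0352 to 0.505), and without untreated replicate 2, the highest, it was -0.13 (adjusted p = 0.505).

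*Klf6* (ENSMUSG00000000078; chr13:5861482-5870394, plus strand) had the most counts of the 10 genes and went the opposite way. The untreated libraries held 6923, 7051, 7643 and 7178 normalized counts of *Klf6*. They fell to 3867, 4071, 4204 and 3772 at 1 h, and stood at 4461, 5000, 4698 and 5447 at 4 h. No 2 of the 3 groups overlapped. At 1 h *Klf6* fell by 44.7% (log2 fold change -0.86, standard error 0.06, adjusted p = 1.33e-07), and the differences within the mice were alike, from -0.93 to -0.79. At 4 h it had fallen less and differed from untreated BMDMs by -31.9% (log2 fold change -0.55, standard error 0.06, adjusted p = 6.24e-06). The partial return from 1 h to 4 h, 0.30 on the log2 scale, also passed (adjusted p = 0.00174).

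*Klf7* (ENSMUSG00000025959; chr1:64029447-64122282, minus strand), known as an activator in neurons and fat cell precursors, had its highest mean at 4 h, unlike the other 3 activators. Its untreated libraries had 394, 408, 339 and 496 normalized counts. At 1 h they had 492, 494, 468 and 481, and at 4 h 589.7, 579, 518 and 674. Untreated replicate 4 lay above all 1 h libraries, and all 4 h libraries lay above those of both other groups. The rise of 44.4% at 4 h passed (log2 fold change 0.53, standard error 0.10, adjusted p = 0.000822). At 1 h the log2 difference was 0.24 (95% interval 0.018 to 0.47, adjusted p = 0.130), and 3 of 4 mice were higher. In a fit that blocks on the mouse it was 0.25 and passed (adjusted p = 0.0229), and without untreated replicate 4 it was 0.35 and passed (adjusted p = 0.0182); over all alternatives the adjusted p was 0.0182 to 0.298. The difference between 4 h and 1 h, 0.29 (adjusted p = 0.0383), was lost when any one of the 1 h libraries, or replicate 1, 2 or 4 at 4 h, was left out (log2 fold changes 0.22 to 0.30, adjusted p = 0.0599 to 0.125). An antisense gene, *Gm26649*, covers 39.3% of the exon bases of *Klf7*, and it was given 0 counts in all 12 libraries. The strand setting of the counting is not known, so these 0 counts cannot show whether *Klf7* lost reads in the shared bases.

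*Klf3* (ENSMUSG00000029178; chr5:64803388-64832901, plus strand) is the repressor of the group that binds CtBP, and it is known from B cells and fat cells. Its normalized counts were 2141, 2298, 1978 and 2251 in untreated BMDMs. They were 1617, 1682, 1663 and 1569 at 1 h, and 2148, 2474, 2044 and 2159 at 4 h. All 1 h libraries were below all others, and untreated and 4 h libraries overlapped. *Klf3* fell by 24.6% at 1 h (log2 fold change -0.41, standard error 0.07, adjusted p = 0.000345) and then rose by 0.43 on the log2 scale from 1 h to 4 h (adjusted p = 0.000106). The 4 h difference from untreated was 0.03, with a 95% interval of -0.11 to 0.16 (adjusted p = 0.790). It was -0.03 without untreated replicate 3 or without 4 h replicate 2. The antisense gene *Gm20033* covers 3.59% of its exon bases and had 33 counts over the 12 libraries.

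The Sin3A-binding factors changed in both directions. *Klf10* (ENSMUSG00000037465; chr15:38291463-38300706, minus strand), an early gene of the TGF-beta response, had 866, 787, 746 and 980.1 normalized counts in untreated BMDMs. It had 1192, 1127, 1162 and 1283 at 1 h and 1049, 1180, 968 and 1101 at 4 h. Every 1 h library exceeded every untreated one, whereas at 4 h replicate 3 lay below the highest untreated library. *Klf10* rose by 40.9% at 1 h (log2 fold change 0.50, standard error 0.08, adjusted p = 0.000573) and was 27.1% above untreated at 4 h (log2 fold change 0.35, standard error 0.08, adjusted p = 0.00405), higher in 4 of 4 mice at both times. The difference between 4 h and 1 h was -0.15 (95% interval -0.33 to 0.028, adjusted p = 0.177), and with libraries scaled by their size only it was -0.057 (adjusted p = 0.632).

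*Klf11* (ENSMUSG00000020653; chr12:24651274-24662789, plus strand), the closest relative of *Klf10* and likewise induced by TGF-beta, was lower where *Klf10* was higher. Its normalized counts were 214.5, 272, 248 and 308 in untreated BMDMs. They were 167, 191, 189 and 216 at 1 h, and 132, 227, 157 and 169 at 4 h. The groups overlapped at both times through untreated replicate 1, although in each mouse the treated libraries were below the untreated one. *Klf11* fell by 34.1% at 4 h (log2 fold change -0.60, standard error 0.16, adjusted p = 0.00680). Its 1 h value of -0.44 (adjusted p = 0.0617) missed the threshold. With the mouse as a block it was again -0.44 and passed (adjusted p = 0.00511), as it did without untreated replicate 1 (-0.53, adjusted p = 0.0407) and without 4 h replicate 1 (adjusted p = 0.0452) or 2 (adjusted p = 0.0276). Over all alternatives its adjusted p at 1 h was 0.00511 to 0.185. The 1 h and 4 h groups differed by -0.16 (95% interval -0.50 to 0.18, adjusted p = 0.478), and by -0.32 without 4 h replicate 2, -0.052 without 4 h replicate 1 and -0.091 without 1 h replicate 4.

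*Klf9* (ENSMUSG00000033863; chr19:23141226-23168134, plus strand), a known target of the glucocorticoid and thyroid hormone receptors, changed late. It had 205, 175, 184 and 207 normalized counts in untreated BMDMs. At 1 h it had 239, 205, 164 and 234, and at 4 h 148, 124, 86.9 and 112. The 4 h libraries were all below the others, and the 1 h libraries surrounded the untreated ones. By 4 h *Klf9* fell by 39.1% from its untreated level (log2 fold change -0.72, standard error 0.16, adjusted p = 0.00220) and fell by 44.1% from its 1 h level (log2 fold change -0.84, standard error 0.16, adjusted p = 0.000743). The 1 h difference was 0.12 (95% interval -0.21 to 0.45, adjusted p = 0.666), and it was 0.23 without 1 h replicate 3, 0.056 without 1 h replicate 1 and 0.069 without 1 h replicate 4.

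*Klf13* (ENSMUSG00000052040; chr7:63886351-63938915, minus strand), known from the late expression of the chemokine gene *Ccl5* in T cells, had the same order of groups as *Klf9* with smaller steps. It had 2644, 2892, 2662 and 2939 normalized counts in untreated BMDMs. It had 2792, 3036, 2879 and 3081 at 1 h and 2440, 2468, 2348 and 2391 at 4 h. The 4 h libraries lay below all others. At 4 h *Klf13* fell by 13.4% (log2 fold change -0.21, standard error 0.05, adjusted p = 0.00518), and between the treated groups it fell by 18.2% (log2 fold change -0.29, standard error 0.05, adjusted p = 0.000497). At 1 h the log2 difference was 0.08 (adjusted p = 0.320). Within the mice it was 0.068 to 0.11, higher in 4 of 4, and with the mouse as a block it did not pass (adjusted p = 0.208). With libraries scaled by their size only it was 0.013 (adjusted p = 0.898).

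*Klf16* (ENSMUSG00000035397; chr10:80567124-80577321, minus strand) had 338, 389.6, 377 and 366 normalized counts in untreated BMDMs. At 1 h it had 575, 479, 502 and 553, and at 4 h 432, 419, 394 and 384. The 1 h libraries stood above all others, and the lowest 4 h library lay just within the untreated range. *Klf16* rose by 43.6% at 1 h (log2 fold change 0.52, standard error 0.08, adjusted p = 0.000162) and fell by 0.37 on the log2 scale from 1 h to 4 h (adjusted p = 0.00132). At 4 h it was 0.15 above untreated, with a 95% interval of -0.017 to 0.31 (adjusted p = 0.146).

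**Figure D2:**
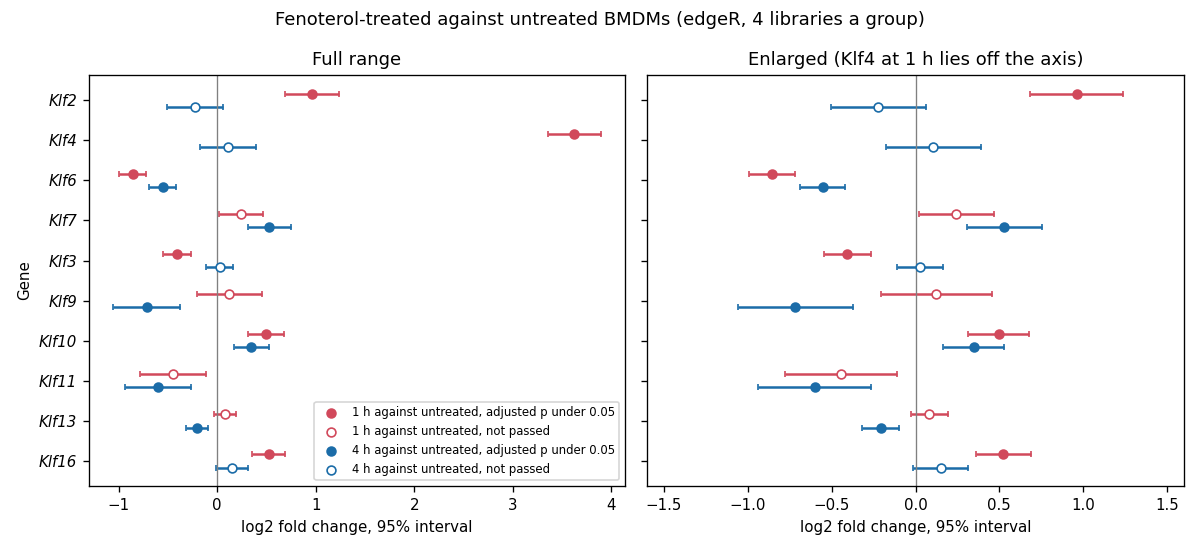
Log2 fold changes of the 10 genes against untreated BMDMs at 1 h (red) and 4 h (blue), with 95% intervals from edgeR and filled points where the adjusted p was under 0.05. The left panel shows the whole range with *Klf4* at 3.62, and the right panel enlarges the range in which the other values lie.

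Levels of different genes were compared as normalized counts per kb of exon. In untreated BMDMs *Klf6* was highest with 1639 ± 71.5 (SD, n = 4), which was 56.2% of the summed level of the 10 genes. *Klf13* followed with 370 ± 20.3 and, with this length, overlapped no other gene. *Klf10* (202 ± 24.6), *Klf3* (193 ± 12.6), *Klf2* (162 ± 32.1) and *Klf16* (138 ± 8.18) came next, and each overlapped its neighbor in this order. *Klf4* (65.3 ± 12.7), *Klf11* (60.01 ± 9.05), *Klf7* (50.3 ± 7.99) and *Klf9* (40.0 ± 3.21) formed the low end, again with neighbors that overlapped.

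At 1 h *Klf4* had moved from the seventh to the second place in this order. Its level was 804 ± 90.8 counts per kb (SD, n = 4), within reach of the 906 ± 44.5 of *Klf6*, and the libraries of the 2 genes overlapped. *Klf4* held 25.2% of the summed level at 1 h, against 2.23% in untreated BMDMs and 2.94% at 4 h. The share of *Klf6* was 28.4% at 1 h and 46.7% at 4 h. The sum over the 10 genes was 2919 ± 95.8 without fenoterol, 3189 ± 53.6 after 1 h and 2386 ± 131 after 4 h, and the libraries of these groups did not overlap. The order of *Klf3* rests on the length used, because the exons of its 9 annotated transcripts add up to 11243 bases while the longest transcript has 5221. With the longest transcript its untreated level was 415 ± 27.2 in place of 193, and that of *Klf10* was 277.5 in place of 202. *Klf13* then had 435 ± 23.9, so its distance from *Klf3* rests on the length too. At 4 h *Klf3* with 422.6 then stood above *Klf13* with 377.1.

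**Figure D3:**
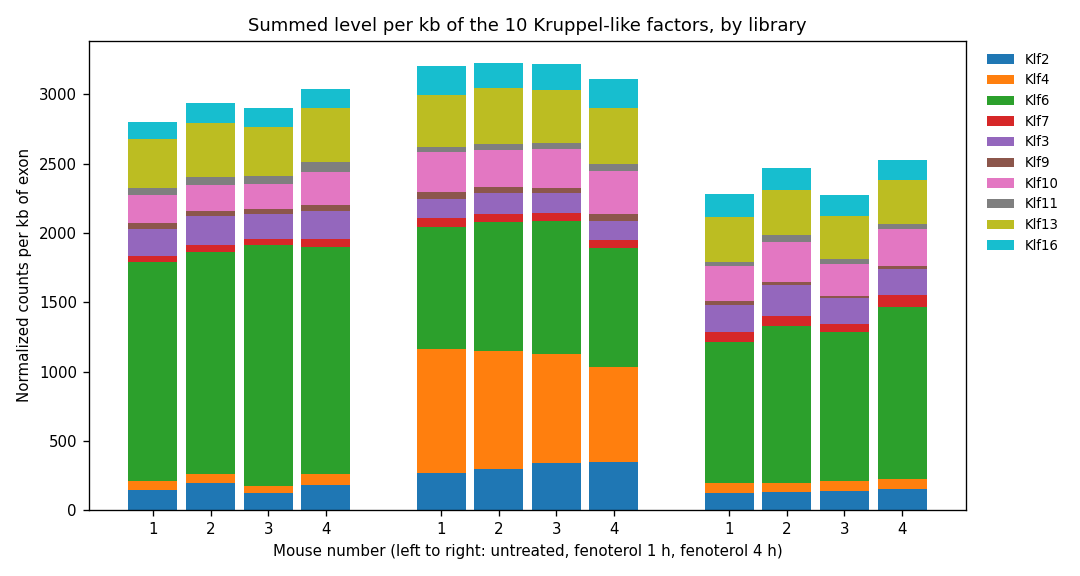
Stacked normalized counts per kb of exon of the 10 genes in each of the 12 libraries (vertical axis from 0, 4 mice in each group). *Klf6* (green) is the largest block in untreated BMDMs, and at 1 h *Klf4* (orange) takes 25.2% of the stack on average.

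Ratios between 2 genes in the same library do not depend on the scaling of the libraries. The pairs were picked after the values had been seen, and the ratios of counts per kb are given as a description without a test. *Klf4* per *Klf2* was 0.43, 0.33, 0.42 and 0.45 in the untreated libraries, 3.35, 2.82, 2.32 and 1.98 at 1 h, and 0.59, 0.44, 0.53 and 0.49 at 4 h. The 2 related activators thus changed places at 1 h in all 4 mice. *Klf4* per *Klf6* went from 0.040 ± 0.0084 (SD, n = 4) in untreated BMDMs to 0.89 ± 0.10 at 1 h and 0.063 ± 0.0093 at 4 h. The lowest 4 h ratio of this pair, 0.052, was above the highest untreated one, 0.050. *Klf10* per *Klf11* was 3.41 ± 0.54 before treatment, 6.52 ± 0.60 after 1 h and 6.69 ± 1.18 after 4 h, with no treated library in the untreated range. *Klf9* per *Klf13* was 0.11 ± 0.011, 0.11 ± 0.019 and 0.076 ± 0.015.

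**Figure D4:**
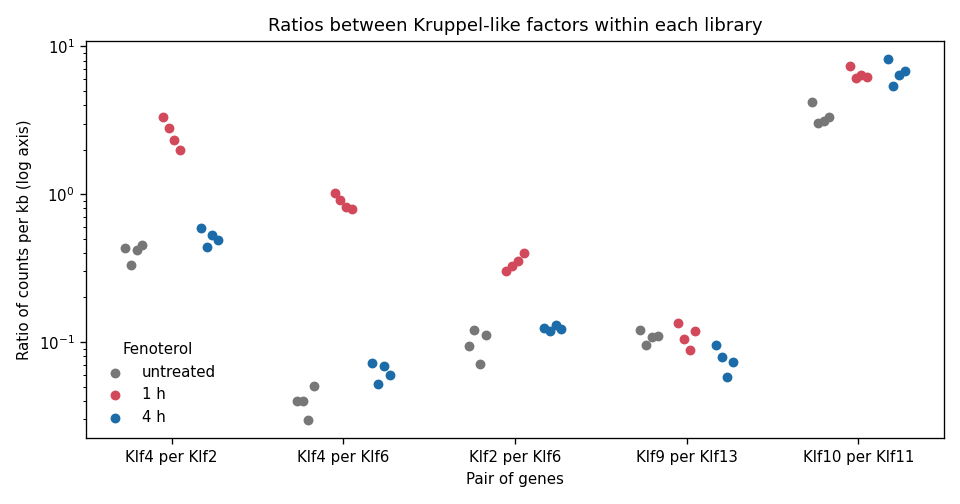
Ratios of counts per kb between pairs of Kruppel-like factors (log axis), with 1 point for each library in untreated BMDMs (grey) and after 1 h (red) and 4 h (blue) of fenoterol. At 1 h *Klf4* per *Klf2* lies above 1 in all 4 libraries, and in all untreated and 4 h libraries it lies below 1.

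Other members of the family were scarce. Of the 7 other Kruppel-like factors listed (*Klf1*, *Klf5*, *Klf8*, *Klf12*, *Klf14*, *Klf15* and *Klf17*), *Klf8* alone had enough counts to be tested, and the others had 0 to 7 counts in a library. *Klf8*, a CtBP-binding factor like *Klf3*, had a mean of 107 normalized counts in untreated BMDMs and was lower at 4 h (log2 fold change -0.49, standard error 0.17, adjusted p = 0.0349). Of the 9 SP factors, which share the zinc fingers and bind GC boxes, *Sp1* to *Sp4* were tested. *Sp3* was lower at 1 h (-0.39, adjusted p = 0.000137) and at 4 h (-0.34, adjusted p = 0.000207). *Sp4* was lower at 1 h (-0.31, adjusted p = 0.0387), and *Sp1* and *Sp2* passed at neither time. The median of these 4 genes was -0.24 at 1 h and 0.00058 at 4 h.

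Partners and regulators were taken from lists of known biology, chosen with earlier results of these data known, and are given by their counts. Beside them, 20.1% of all genes passed at 1 h and 40.0% at 4 h, and with so few genes in a list a count near these shares says nothing of the list. Of 9 corepressor and coactivator genes, 2 passed at 1 h and 2 at 4 h, a share near that of all genes at 1 h and below it at 4 h. The acetyltransferase gene *Ep300* was lower at 1 h (-0.52, adjusted p = 3.12e-05) and *Kat2b*, which encodes PCAF, was higher (0.30, adjusted p = 0.0127). *Sin3a* was higher at 4 h (0.38, adjusted p = 3.38e-05), and *Ctbp2*, which encodes a corepressor of KLF3, was lower (-0.24, adjusted p = 0.00100). The median log2 fold change of these 9 genes was 0.04 at 1 h and 0.06 at 4 h. Of 7 genes of the ERK5 and MEF2 route, known to drive *Klf2* and *Klf4* in endothelium, 2 passed at 1 h and 4 at 4 h, which is also near the shares of all genes. Their medians were 0.06 and -0.13, against -0.0049 and 0.0042 over all genes. The factor gene *Mef2d* was higher at 1 h (0.71, adjusted p = 2.05e-07) and 4 h (0.55, adjusted p = 1.71e-06). *Mapk7*, which encodes ERK5, was lower at 1 h (-0.37, adjusted p = 0.0139) and 4 h (-0.26, adjusted p = 0.0467), and *Mef2a* and *Mef2c* were lower at 4 h.

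Of 6 genes of ubiquitin ligases known to act on Kruppel-like factors, the lowest adjusted p at 1 h was 0.303, and 3 passed at 4 h, near the 40.0% of all genes, with medians of -0.070 and -0.0051. *Wwp1*, whose ligase acts on KLF2 and KLF5, fell at 4 h from a mean of 17280 normalized counts to 4757 (log2 fold change -1.86, standard error 0.07, adjusted p = 7.58e-11), while *Vhl* (0.30) and *Btrc* (0.24) were higher. Of 7 TGF-beta genes, *Smad7*, *Smad3* and *Tgfb1* were higher at 1 h, with log2 fold changes of 1.89, 0.62 and 0.22, and the median of the list was 0.22 at 1 h and -0.088 at 4 h. At 4 h *Smad7* was still higher (0.62, adjusted p = 0.0215), and *Tgfbr1* (-0.73) and *Smad2* (-0.15) were lower. The receptor gene of glucocorticoids, *Nr3c1*, was lower at 1 h (-0.26, adjusted p = 0.00444) and 4 h (-0.66, adjusted p = 3.91e-07). Of the 4 targets of this receptor listed beside it, *Per1*, *Sgk1* and *Tsc22d3* were higher at both times and *Fkbp5* at 4 h. The first 3 had log2 fold changes of 2.58, 1.86 and 0.625 at 1 h, and at 4 h the 4 targets had 0.39 to 1.19. *Klf9*, also a target, was lower at 4 h. Whether any of these changes ran through this receptor was not tested. The median over the 5 listed genes was 0.63 at 1 h and 0.76 at 4 h.

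The genes with the pattern most like each Kruppel-like factor were sought by Pearson's r of log2 CPM over the 12 libraries, among 10288 genes with a mean of at least 50 normalized counts. The libraries share mice and groups, and r is given as a description. *Klf4* was followed most closely by *Ndel1* (r = 0.994), which encodes a dynein regulator and rose from a mean of 1443 normalized counts to 7430 at 1 h, and by the zinc exporter gene *Slc30a1* (r = 0.992). *Klf2* was followed by *Irs2* (r = 0.977), which encodes an adaptor of the insulin receptor, and by *Elmsan1* (r = 0.969). The pattern nearest to *Klf6* was that of the transcription factor gene *Elf1* (r = 0.980), which fell from a mean of 3257 normalized counts to 2178 at 1 h and 2489 at 4 h. *Klf3* was nearest to *D1Ertd622e* (r = 0.969) and *Relt* (r = 0.964), *Klf9* to *Mgll* (r = 0.963), which encodes monoacylglycerol lipase, and *Exoc4* (r = 0.960). *Klf7* (*Mrpl33* and *Agps*, r = 0.923 and 0.916) and *Klf10* (*1810026B05Rik* and *Tshz1*, r = 0.932 and 0.919) had the least close neighbors. *Klf11* was nearest to *Icosl* (r = 0.965) and *Patz1* (r = 0.942), *Klf13* to *Wwc2* (r = 0.965) and *Chst12* (r = 0.963), and *Klf16* to *Ss18l1* (r = 0.953) and *Apold1* (r = 0.947). *Apold1* reached the minimum mean through the 1 h group alone, with means of 2.94, 520.0 and 7.29 normalized counts in the 3 groups, and its course was far steeper than that of *Klf16*. By Spearman's rho, *Mgll* and *Icosl* again ranked 1 for *Klf9* and *Klf11*, and *Slc30a1* ranked 2 for *Klf4*. The order was less stable for *Mrpl33*, which ranked 87 for *Klf7*, *Ss18l1*, which ranked 42 for *Klf16*, and *Ndel1*, which ranked 40 for *Klf4*.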

How the data were processed

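RNA of 12 BMDM libraries (4 mice, 3 groups) was sequenced from stranded mRNA libraries as single-end reads of 50 bases. Per the submitters' processing notes, TopHat2 2.0.11, HTSeq 0.8.0 and the build GRCm38 were used; the strand setting and annotation release of the counting are not given in the sources used here. The values that the authors deposited are raw counts per gene, not normalized. The study itself used vsn and limma. Here the counts were tested with edgeR 4.0.16 in R 4.3.3 (filterByExpr, TMM, quasi-likelihood test, all 12 libraries fitted together by group, without a block, Benjamini-Hochberg adjustment over 12386 genes for each contrast), with an adjusted p under 0.05 as the threshold. The scripts were tested on simulated data. Symbols and exon lengths came from GENCODE M21.

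The members and gene lists were chosen with earlier results of these data known. The genes named are the 10 members, members of the lists, and the 2 genes most like each member by Pearson's r, of which 1 is not reported here. The motifs were listed with them, and the 60-base stretches and the ratio pairs were picked later.

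Same-numbered libraries come from the same mouse by their labels. Their deviations from the group means had r of 0.29 to 0.561 (12 pairs), against -0.304 to 0.0912 for different mice (36 pairs). Replicates of a group differed beyond counting error (chi-square per degree of freedom 9.29 to 19.4). In the main fit, which has no block for the mouse, the precision is set by the spread between the 4 mice of a group (biological coefficient of variation 0.112). The pairing of the libraries by mouse enters only the fit with the block. Alternatives were DESeq2 1.42.0, voom and trend from limma 3.58.1, RLE factors, library size only, 2 other filters, a block for the mouse, fits of 2 groups alone, each library left out, an adjusted p under 0.01, the longest transcript as the length, and Spearman's rho.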

Additional observations from a re-analysis of the deposited data

Results flagged for a closer look

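In 1 of 30 groups of 4 libraries (10 genes in 3 groups), a single library lay apart from the other 3 by Dixon's criterion, where chance gives about 1 in 20, or 1.5 of 30. This was *Klf4* at 4 h, with 179.4 normalized counts in replicate 2 and 222.9 to 225.9 in the others (ratio 0.935). Without this library the log2 fold change of *Klf4* at 4 h was 0.18 (adjusted p = 0.336 in edgeR's quasi-likelihood test) in place of 0.11, and its adjusted p over all alternatives was 0.178 to 0.983.

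The effect of fenoterol differed between 4 h and 1 h for 8 of the 10 genes, tested as the contrast of the 2 treated groups, in which 38.5% of all genes passed. The log2 differences, 4 h against 1 h, were -3.518 for *Klf4*, -1.185 for *Klf2*, -0.8393 for *Klf9*, -0.3735 for *Klf16*, -0.2892 for *Klf13*, 0.2882 for *Klf7*, 0.3013 for *Klf6* and 0.4341 for *Klf3*. The call of *Klf7* was lost when any one of 7 treated libraries was left out (adjusted p = 0.0599 to 0.125 in edgeR's test), which leaves 7 genes.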

How the results depend on the processing

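Over 21 alternatives, 610 of 630 fold changes of the 10 genes kept their direction and their side of the threshold, and 24 of the 30 results did so in every alternative. The number of genes past the threshold was 6 to 8 at 1 h, 6 or 7 at 4 h, and 7 or 8 between 4 h and 1 h. The sign turned for 3 values, none of them past the threshold: *Klf3* at 4 h was -0.0255 without untreated replicate 3 and -0.0322 without 4 h replicate 2 (leave-one-out range -0.0322 to 0.0615), and *Klf4* at 4 h was -0.0050 without untreated replicate 3 (range -0.0050 to 0.23). *Klf11* at 1 h passed in 7 alternatives, among them DESeq2 (adjusted p = 0.0360), library size only (-0.51, adjusted p = 0.0302) and a fit of only the 2 groups compared (adjusted p = 0.0351). The cause of these changes was not tested. With the mouse as a replicate block, *Klf7* (0.25, adjusted p = 0.0229) and *Klf11* (-0.44, adjusted p = 0.00511) passed at 1 h, and the call of no other of the 10 genes changed in any contrast. Over all genes, the block called 3348, 5870 and 5775 genes at 1 h, at 4 h and between them, against 2493, 4958 and 4773. An adjusted p under 0.01 left 1580 genes at 1 h. Library size only moved the median log2 fold change of all genes to -0.0733 at 1 h and 0.100 between 4 h and 1 h. It also moved 5 values that had not passed by over 1.5 times: *Klf9* (0.054) and *Klf13* (0.013) at 1 h, *Klf3* (0.050) at 4 h, and *Klf10* (-0.057) and *Klf11* (-0.064) between 4 h and 1 h. The lowest group mean of the 10 genes was 118 normalized counts, and of the other Kruppel-like factors only *Klf8* had enough counts to be tested.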
